A study of Mus musculus with 18 samples.

Results

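Cholesterol and its precursors are built inside the cell from acetyl units. The mevalonate arm makes isoprenoid units, the squalene arm joins and closes them into a ring, and a late arm trims the ring into cholesterol. The same cells make long fatty acids, and both pathways answer to the sterol regulatory element-binding proteins encoded by Srebf1 and Srebf2. In brain and spinal cord nearly all cholesterol is made locally, most of it goes into myelin, and neurons clear a part of it through cholesterol 24-hydroxylase, the product of Cyp46a1.

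The genes described here were a list of 31, chosen by name and with earlier results of these data known. They were 18 enzymes of sterol synthesis, 5 regulators, 5 enzymes of fatty acid synthesis and 3 genes of sterol export and turnover. Every probe set (a group of short probes for one transcript) annotated with exactly 1 of these symbols was taken, which gave 57 of 22690 probe sets, for 29 of the 31 genes, out of 12393 genes named on the array. Acat2, of sterol synthesis, and Insig1, a regulator, were not analysed here. Of the 57 probe sets, 48 had enough signal to be tested and 9 lay below the filter on low signals; all 29 genes had at least 1 tested probe set. Each gene is described by its probe set of highest mean signal, and the 19 other tested probe sets are given where their call differs from it between the regions or with age in spinal cord. Signals of different probe sets depend on their probes, so levels are compared between samples and not between genes.

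The study profiled mouse oculomotor nucleus, which holds the motor neurons that move the eye, and cervical spinal cord, in a model of amyotrophic lateral sclerosis (ALS), a disease in which spinal motor neurons die while eye movements are largely spared. There were 6 groups of 3 arrays: oculomotor nucleus and spinal cord of mutants of 6 weeks, of controls of 10 weeks and of mutants of 10 weeks. The labels give every sample, controls included, as part of the ALS model and describe the mutants by that word alone; there was no control group of 6 weeks. Strain, transgene, sex and any pooling of animals are not given in the sources used here, and the series' design text calls the replicates independent without saying whether each was an animal.

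The values are linear Affymetrix signals, scaled by the authors so that arrays can be compared. One array, replicate 1 of the control spinal cord, is not used, since its signals had a correlation of 0.0104 to 0.0143 with those of the other arrays, which correlated at 0.957 to 0.985 with each other. The 17 remaining arrays had a median signal of 207 to 226 over all probe sets other than controls. Markers told midbrain from spinal cord. In the mean of the 3 regional differences all 5 spinal Hox genes tested were lower in oculomotor nucleus. All 4 monoamine genes of midbrain were higher there, though they do not mark the oculomotor nucleus itself. The summed signal of 5 motor neuron genes was 469 to 648 on oculomotor arrays against 2254 to 2765 on spinal cord arrays. Of these 5 genes 3 had enough signal to be tested. In whole tissue, fewer cells of a type and less RNA per cell cannot be told apart. The pituitary hormone genes Gh and Prl were high on oculomotor control replicate 3 (2934 and 3008) and oculomotor 10-week mutant replicate 2 (13207 and 2209). Ttr, a choroid plexus gene, was high on oculomotor control replicates 1 and 2 (6884 and 2148), against 86 to 197 on the other oculomotor arrays. All 3 oculomotor control arrays are thus among those named.

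Since many of the listed enzymes were lower together in oculomotor nucleus, the stretch before the start of 3 genes is shown. RefSeq promoter windows on GRCm38.p6, from 250 bases before to 50 after a start, were found for 25 of the 31 genes. Fdft1, Fdps, Scd1, Scd2, Sqle and Stard4 had no window and were not searched. They were searched on both strands for the sterol regulatory element TCACNCCAC, the letters bound by the sterol regulatory element-binding proteins, and for the CCAAT box (CCAAT, or ATTGG on the other strand), a common element of promoters. The sterol element stood in 1 of 33 windows of these genes, that of Hmgcs1, and in 1.24% of all 32851 windows. A CCAAT box stood in 21 of the 33 windows, for 20 of the 25 genes, and in 37.4% of all windows. These are matches of letters and not measured binding. Only exact matches were counted, so a window without one is not shown to lack a working element. Of 3 genes, the 250 bases before the start are printed 5′ to 3′ on the gene's strand, with matches in capitals. Hmgcs1 was the single one of the 25 genes searched with an exact sterol element. The others, chosen after their values were seen, are Idi1, which was lower in oculomotor nucleus, and Cyp46a1, which was higher there.
Hmgcs1 (chr13:119690101-119690350, plus strand): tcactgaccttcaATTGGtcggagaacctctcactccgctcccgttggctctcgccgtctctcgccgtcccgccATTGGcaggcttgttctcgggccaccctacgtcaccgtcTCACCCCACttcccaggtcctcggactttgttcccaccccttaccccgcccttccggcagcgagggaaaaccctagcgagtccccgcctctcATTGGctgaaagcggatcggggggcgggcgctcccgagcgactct
Idi1 (chr13:8885356-8885605, plus strand): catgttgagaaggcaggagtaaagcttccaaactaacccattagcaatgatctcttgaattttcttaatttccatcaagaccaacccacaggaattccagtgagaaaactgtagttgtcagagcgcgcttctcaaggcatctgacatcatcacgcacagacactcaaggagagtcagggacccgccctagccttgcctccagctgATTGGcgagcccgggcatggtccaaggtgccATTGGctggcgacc
Cyp46a1 (chr12:108334066-108334315, plus strand): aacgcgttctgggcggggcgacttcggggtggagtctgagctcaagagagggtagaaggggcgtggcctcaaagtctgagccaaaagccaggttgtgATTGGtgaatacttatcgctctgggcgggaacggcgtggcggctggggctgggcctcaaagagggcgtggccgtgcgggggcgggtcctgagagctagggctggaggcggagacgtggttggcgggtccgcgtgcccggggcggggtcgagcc
The sterol element of Hmgcs1, on the printed strand, begins 137 bases before the start, and its CCAAT boxes in the printed stretch begin 237, 176 and 45 bases before it. Idi1 has a pair of CCAAT boxes, 45 and 14 bases before the start, and Cyp46a1 has 1, 153 bases before it.

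Many genes of cholesterol synthesis were lower in oculomotor nucleus than in spinal cord: 11 of the 17 tested were called lower in 6-week mutants, 5 in 10-week controls and 8 in 10-week mutants, and none higher. Cyp46a1 was called higher in the first 2 of these conditions. In the mean of the 3 regional differences, 16 of the 17 synthesis enzymes tested were called lower and none higher; Pmvk, phosphomevalonate kinase, was the exception (log2 difference −0.24 ± 0.10, SE; limma adjusted p = 0.062). A probe set is called at a Benjamini-Hochberg adjusted p under 0.05 from limma, over all 13575 probe sets tested. Over the list, 33 member probe sets were called lower (19 genes) and 4 higher (3 genes), against 17.7% and 20.0% of all tested probe sets. The median over the 29 genes was −0.39 on the log2(signal + 25) scale, that of all tested probe sets 0.02. The differences were modest: none of these mean differences reached 2-fold.

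**Figure D1:**
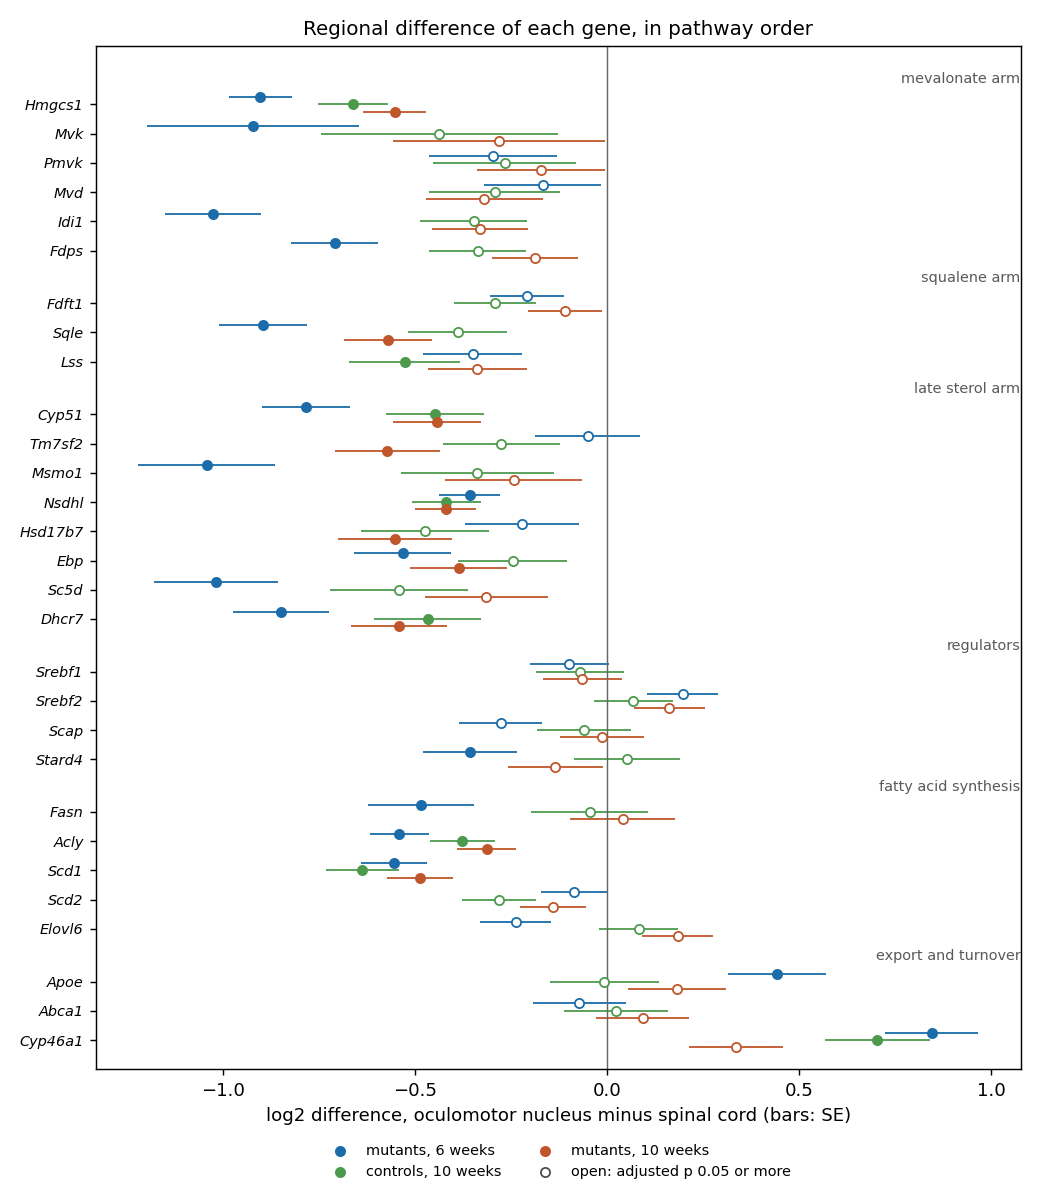
Each point is the difference in log2(signal + 25) between oculomotor nucleus and spinal cord for 1 gene (y axis, in pathway order), in 6-week mutants, 10-week controls and 10-week mutants. Bars are standard errors, and filled points have an adjusted p under 0.05. All enzymes of the first 3 arms lie left of 0, the regulators lie between −0.36 and 0.20, and Cyp46a1 lies right of 0, from 0.34 to 0.85.

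In mutants of 6 weeks, 25 member probe sets were lower in oculomotor nucleus, for 15 genes, and 2 were higher, for Apoe and Cyp46a1; of all tested probe sets 11.7% were lower and 12.2% higher. In controls of 10 weeks 11 were lower (7 genes; background 6.94%) and 2 higher (background 6.62%), which were Cyp46a1 and the second probe set of Srebf2. In mutants of 10 weeks 18 were lower (10 genes, background 9.99%) and none was higher (background 9.30%). At an unadjusted p under 0.05 in either direction there were 23 of 48 in that condition, 1 of them higher, against 32.7% of all tested. The medians over the 29 genes were −0.36, −0.29 and −0.28 in that order, against 0.03, 0.01 and 0.00 for all tested probe sets. The 3 regional differences share no array. In all 3 of them 8 member probe sets were lower, for Hmgcs1, Cyp51, Nsdhl, Dhcr7, Acly and Scd1, where 4.40% of all tested probe sets were. Counts in the 10-week groups leaned on single arrays. The count in controls, which had 2 spinal cord arrays, fell from 13 to 8 without spinal cord replicate 2 and to 7 without replicate 3, and that in 10-week mutants from 18 to 11 without oculomotor replicate 2, the array with the highest Gh.

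In the mevalonate arm 5 of 6 genes tested were called lower in the mean. Hmgcs1, cytosolic HMG-CoA synthase, which makes HMG-CoA, had signals of 5302, 5534 and 5063 in oculomotor nucleus of 6-week mutants and of 10551, 10491 and 8818 in their spinal cord. In 10-week controls the oculomotor arrays read 4645, 4747 and 4483 and the spinal cord arrays 7443 and 7208. In 10-week mutants the oculomotor arrays read 5195, 5522 and 5239 and the spinal cord arrays 7988, 8296 and 7178. Every oculomotor array lay below every spinal cord array. Spinal cord was 1.87-fold higher at 6 weeks, 1.58-fold higher in controls and 1.47-fold higher in 10-week mutants (log2 differences −0.90 ± 0.08, −0.66 ± 0.09 and −0.55 ± 0.08; limma adjusted p = 2.8e-07, 6.6e-05 and 9.7e-05). Its 3 dimmer probe sets gave −0.30, −0.38 and −0.78 at 6 weeks, the first 2 not called. In controls the same 3 gave −0.63, −0.52 and −0.69, the second not called, and in 10-week mutants −0.26, −0.38 and −0.46, the first 2 not called.

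Idi1, isopentenyl diphosphate isomerase, which converts one isoprenoid unit into the other, had signals of 1334, 1293 and 1033 in oculomotor nucleus of 6-week mutants against 2602, 2547 and 2338 in spinal cord. At 10 weeks controls read 1238, 899.6 and 1252 against 1437 and 1418, and mutants 1476, 1379 and 1209.9 against 1561, 1777 and 1788. The regions were apart within each condition, and the gap at 6 weeks, 2.03-fold, was the one called (log2 difference −1.02 ± 0.12, limma adjusted p = 9.6e-06), with −0.35 ± 0.14 in controls and −0.33 ± 0.12 in 10-week mutants. Its dimmer probe set gave −1.38 ± 0.15 at 6 weeks and was also called in 10-week mutants, at −0.54 ± 0.15.

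Fdps, farnesyl diphosphate synthase, which builds the chain that feeds squalene, dolichol and prenylated proteins, had oculomotor signals of 1295, 1522 and 1522 at 6 weeks against 2496, 2470.2 and 2166 in spinal cord. In controls they were 1539, 1434 and 1654 against 1906 and 1998, and in 10-week mutants 1285, 1715 and 1497 against 1901, 1691 and 1524. Regions overlapped in 10-week mutants only. The difference was called at 6 weeks, at −0.71 ± 0.11 (limma adjusted p = 0.00015), and was −0.34 ± 0.13 in controls and −0.19 ± 0.11 in 10-week mutants. Of the other kinases and the decarboxylase of this arm, Mvk (mevalonate kinase) was called lower at 6 weeks, at −0.92 ± 0.28, a call lost without oculomotor replicate 2 (−0.78) or spinal cord replicate 3 (−0.89), and in the mean, at −0.55 ± 0.17, lost without control spinal cord replicate 2 (−0.50). Mvd, which decarboxylates mevalonate diphosphate, was called in the mean alone, at −0.26 ± 0.09, and its call was lost on leaving out any of 8 arrays. Its second probe set was called in 10-week mutants too, at −0.68 ± 0.15, where the first read −0.32 ± 0.15.

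In the squalene arm Sqle, squalene epoxidase, a rate-limiting enzyme of the pathway, had oculomotor signals of 1410, 1603 and 1255 at 6 weeks against 2322, 2902 and 2775. In controls they were 1430.2, 1441 and 1405 against 1781 and 1972, and in 10-week mutants 1356, 1758 and 1545 against 2482, 2385 and 2071. Every oculomotor array again lay below every spinal cord array. The differences were −0.90 ± 0.11 at 6 weeks and −0.57 ± 0.11 in 10-week mutants, both called (limma adjusted p = 1.5e-05 and 0.0016), and −0.39 ± 0.13 in controls (adjusted p = 0.051). Fdft1, squalene synthase, and Lss, lanosterol synthase, differed less, at −0.20 ± 0.06 and −0.40 ± 0.08 in the mean, both called. Lss was also called in controls, at −0.53 ± 0.14, but not without oculomotor replicate 1 (−0.50) or spinal cord replicate 2 (−0.48) or 3 (−0.57). The second probe set of Lss read −0.10 ± 0.20 in controls, with regions that overlapped, and was called at 6 weeks, at −0.75 ± 0.18, where the first read −0.35 ± 0.13 and was not called. The second probe set of Fdft1 was called at 6 weeks as well, at −0.49 ± 0.10, where the first read −0.21 ± 0.10.

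All 8 genes of the late sterol arm were called lower in the mean. Msmo1, the methylsterol monooxygenase that removes methyl groups from the ring, had the largest gap of this arm at 6 weeks: 1648, 1686 and 1746 in oculomotor nucleus against 4055, 4626 and 2306 in spinal cord, where the third array was far below the others. Controls read 2256, 1996 and 2059.7 against 2619.9 and 2703, and 10-week mutants 1619, 1458 and 2017 against 1820.4, 2279.7 and 1912. Regions were apart at 6 weeks and in controls and overlapped in 10-week mutants. The difference was −1.04 ± 0.18 at 6 weeks (2.06-fold, limma adjusted p = 0.00031), −0.34 ± 0.20 in controls and −0.24 ± 0.18 in 10-week mutants.

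Sc5d, which places a double bond in the last steps of the ring, showed the same order of gaps. Its oculomotor signals were 927, 863 and 927 at 6 weeks against 1916, 1938 and 1729 in spinal cord. Controls read 936, 969 and 1169 against 1282 and 1742, and 10-week mutants 1129.5, 969 and 797 against 1421, 1355 and 883. The third spinal cord array of the 10-week mutants lay within the oculomotor range. The difference was −1.02 ± 0.16 at 6 weeks (limma adjusted p = 0.00015), −0.54 ± 0.18 in controls and −0.31 ± 0.16 in 10-week mutants. The second probe set of Sc5d was called at 6 weeks, at −0.56 ± 0.15, and read 0.05 ± 0.17 in controls.

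Nsdhl, a sterol dehydrogenase, had a small and even gap. Oculomotor arrays read 1175, 1210.4 and 1122 at 6 weeks against 1457, 1491 and 1565, 981, 963 and 900.4 in controls against 1310.1 and 1239, and 1061, 1135 and 1028 in 10-week mutants against 1427, 1451 and 1457. All oculomotor arrays lay below all spinal cord arrays, with differences of −0.36, −0.42 and −0.42 (SE 0.08 to 0.09), each called; that in controls was lost without spinal cord replicate 2 (−0.38). Cyp51, lanosterol demethylase, was called in each condition at −0.78, −0.45 and −0.44, and Dhcr7, which takes the last step to cholesterol, at −0.85, −0.47 and −0.54. Their calls in controls were lost without spinal cord replicate 3 (−0.32 and −0.43) and without 2 and 3 other arrays respectively, and that of Cyp51 in 10-week mutants without spinal cord replicate 3 (−0.36). The second probe set of Cyp51 was not called in controls (−0.37 ± 0.16). Tm7sf2, a sterol reductase, and Hsd17b7, a sterol ketoreductase, were called lower in 10-week mutants (−0.57 ± 0.14 and −0.55 ± 0.15) and not at 6 weeks (−0.05 ± 0.14 and −0.22 ± 0.15). The change of the gap with age was −0.52 ± 0.19 and −0.33 ± 0.21 and was not called for either gene. The Hsd17b7 call was lost without any of 3 arrays, with values from −0.50 to −0.45, and the second probe set of Hsd17b7 was not called in 10-week mutants (−0.34 ± 0.18) or in the mean (−0.28 ± 0.11). Ebp, a sterol isomerase, was called at 6 weeks (−0.53 ± 0.13) and in 10-week mutants (−0.39 ± 0.13), the second of which was lost on leaving out any of 6 arrays.

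**Figure D2:**
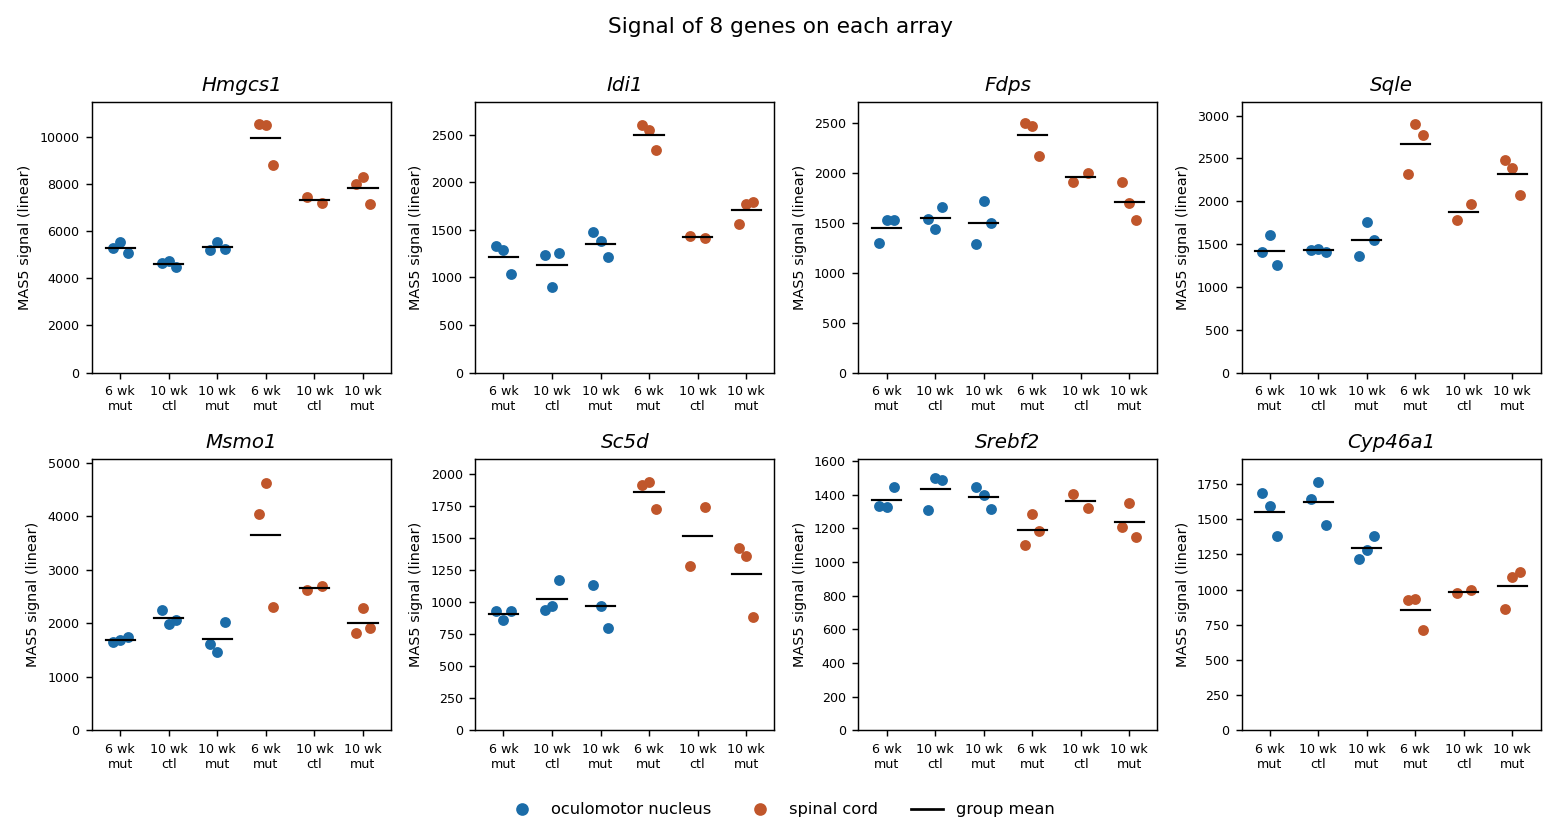
MAS5 signal (linear y axis, from 0) of 8 genes on each of the 17 arrays by region, age and genotype (mut, mutant; ctl, control), with group means as lines. Spinal cord of 6-week mutants is the highest group for Hmgcs1, Idi1, Fdps, Sqle, Msmo1 and Sc5d, Srebf2 is nearly level, and Cyp46a1 runs from 714 to 1122 in spinal cord and from 1215 to 1765 in oculomotor nucleus.

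Of the 4 regulators tested, 1 was called lower at 6 weeks and none in the other conditions. Srebf1 and Scap, the escort of the sterol regulatory element-binding proteins, were not called in any regional difference (mean −0.08 ± 0.06 and −0.12 ± 0.07). Srebf2 was slightly higher in oculomotor nucleus in the mean (0.14 ± 0.06, limma adjusted p = 0.05), a call lost on leaving out any of 13 arrays. Its second probe set was called higher in controls, at 0.63 ± 0.19. There the oculomotor arrays read 661, 1149 and 707 and the spinal cord arrays 521 and 516, so oculomotor replicate 2 was far above the others. Stard4, a sterol carrier, was called lower at 6 weeks, at −0.36 ± 0.12, and lost that call on leaving out any of 5 arrays, with values from −0.38 to −0.26. Its second probe set was not called (−0.23 ± 0.15).

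In fatty acid synthesis Scd1 and Acly were lower in oculomotor nucleus in every condition. Scd1, stearoyl-CoA desaturase 1, read 3797, 3914 and 4005 at 6 weeks against 5207, 6019 and 6058, 3261, 3136 and 3211 in controls against 5278 and 4721, and 3927, 3421 and 3999.9 in 10-week mutants against 5256, 5653 and 4993. Acly, ATP citrate lyase, which supplies acetyl-CoA to both pathways, read 3167, 2967 and 3260.4 against 4528, 4689 and 4468, 3274, 3366 and 3493 against 4286 and 4494, and 3792, 3674 and 3569 against 5032, 4411 and 4311. For both genes all oculomotor arrays lay below all spinal cord arrays. The differences were −0.56, −0.64 and −0.49 for Scd1 and −0.54, −0.38 and −0.31 for Acly (SE 0.08 to 0.10), all called; that of Acly in controls was lost without spinal cord replicate 3 (−0.34). The second probe set of Scd1 was not called in controls (−0.33 ± 0.25), nor was 1 of the other 2 of Acly in 10-week mutants (−0.23 ± 0.09). Fasn, fatty acid synthase, was called at 6 weeks alone, at −0.48 ± 0.14, and not without oculomotor replicate 2 (−0.40) or spinal cord replicate 3 (−0.41). Scd2, the main desaturase of brain, was called in the mean, at −0.17 ± 0.05. Its dimmest probe set was also called at 6 weeks (−0.55 ± 0.14) and in 10-week mutants (−0.44 ± 0.14), and the remaining one in 10-week mutants (−0.23 ± 0.07). Elovl6, an elongase, was not called in the mean (0.01 ± 0.06).

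Cyp46a1 ran the other way. Oculomotor arrays read 1685, 1595 and 1384 at 6 weeks against 926, 932 and 714 in spinal cord, 1642, 1765 and 1460.0 in controls against 973 and 994, and 1215, 1282 and 1381 in 10-week mutants against 861, 1089 and 1122. Every oculomotor array lay above every spinal cord array. It was 1.80-fold higher in oculomotor nucleus at 6 weeks and 1.63-fold higher in controls (log2 differences 0.85 ± 0.12 and 0.70 ± 0.14; limma adjusted p = 6.1e-05 and 0.0016), and 0.34 ± 0.12 higher in 10-week mutants, which was not called (adjusted p = 0.061). Apoe, the main lipid carrier secreted by astrocytes, was called higher at 6 weeks, at 0.44 ± 0.13, and lost the call without oculomotor replicate 2 (0.39) or spinal cord replicate 1 (0.42), and with quantile normalization (0.19). Its call in the mean (0.21 ± 0.08) was lost on leaving out any of 12 arrays. Abca1, which loads cholesterol onto lipoproteins, was not called (mean 0.02 ± 0.07).

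Other genes of sterol and lipid handling were listed beside the members; the counts that follow are in the mean, where 17.7% of all tested probe sets were lower and 20.0% higher. Of the 9 genes of myelin lipid synthesis tested, 8 were called lower in oculomotor nucleus in the mean and none higher, with Ugt8a at −0.92 ± 0.05 and Fa2h at −1.02 ± 0.07, which make galactolipids and hydroxylated fatty acids of myelin. Of 15 further fatty acid genes 11 were lower, among them Elovl1 (−0.99 ± 0.07), and Fads2, the delta-6 desaturase, was higher (0.50 ± 0.06). Of 12 genes of sterol efflux, storage and oxidation 6 were lower, led by Apod (−1.05 ± 0.05) and Cyp27a1 (−1.32 ± 0.09), and Abcg4 was higher. Of 9 genes of sterol uptake and trafficking 2 were lower, Npc2 (−0.81 ± 0.06) and Npc1 (−0.28 ± 0.09), a share near that of all probe sets. None of 3 further synthesis genes was called.

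Markers of several cell types differed between the regions too. The summed signal of 11 oligodendrocyte genes was 65989 to 67267 in oculomotor nucleus of 6-week mutants against 71834 to 73025 in spinal cord, 39086 to 42839 against 63439.9 to 75089.5 in controls, and 48548 to 54037 against 64805 to 81394 in 10-week mutants. All 11 were called lower in oculomotor nucleus in the mean. At 6 weeks 7 were called lower and none higher, with a median of −0.50 over the 11 genes. Mbp and Mobp, which were not called, read 0.25 ± 0.14 and 0.23 ± 0.11 there. The summed signal of 17 sterol synthesis genes was 17663 to 19353 over the 9 oculomotor arrays. In spinal cord it was 29312 to 33858 at 6 weeks, 24455 to 25262 in controls and 23264 to 26204 in 10-week mutants. All 6 fibroblast and meninges genes were lower in oculomotor nucleus, such as Col3a1 at −2.09 ± 0.10. Of 3 Schwann cell genes Pmp22, a peripheral myelin gene, was the one with enough signal to be tested (−2.09 ± 0.09). Of astrocyte genes 4 of 8 were called lower in the mean and 1 higher, of microglia genes 4 of 5 lower and of oligodendrocyte precursor genes 3 of 5 lower. Of 9 neuron genes 3 were called higher and 3 lower, with a median of 0.06, and of 4 endothelium genes none was called. The part of these cells in the sterol gap was not tested.

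**Figure D3:**
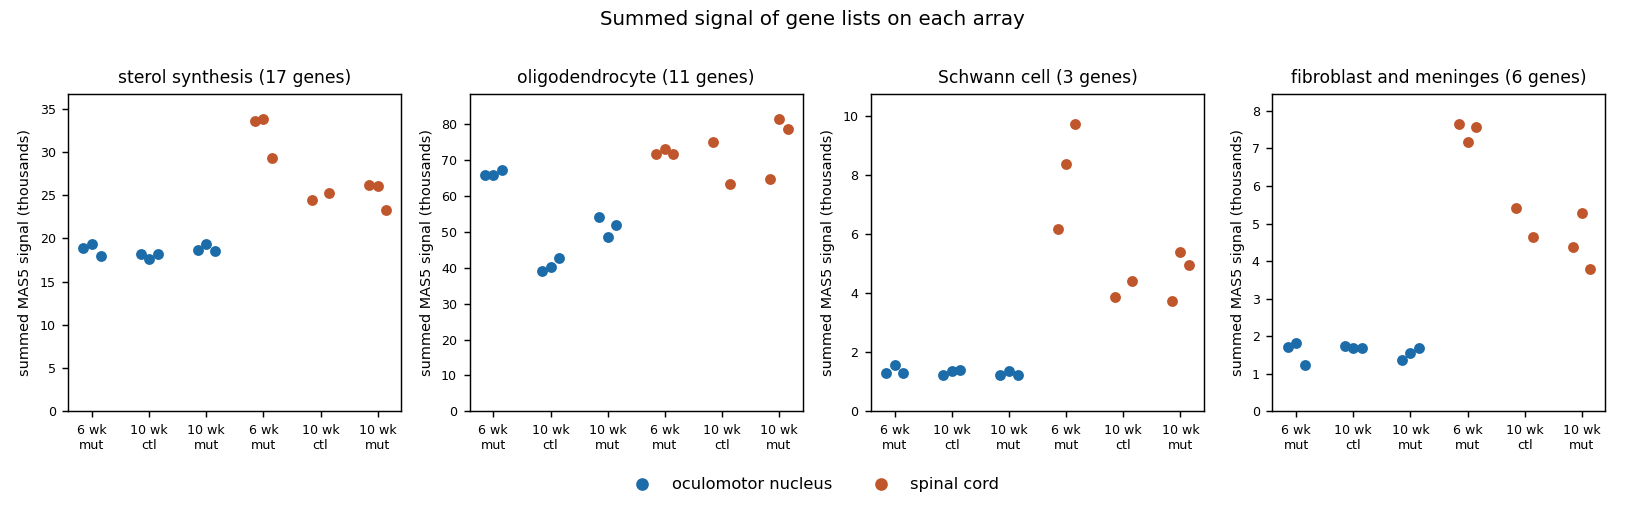
Summed MAS5 signal (linear y axis, from 0, unit on the axis) of 4 gene lists on each array, by region, age and genotype (mut, mutant; ctl, control). The sterol sum is level on oculomotor arrays and highest in spinal cord of 6-week mutants. The Schwann cell sum, which is nearly all Pmp22, and the fibroblast sum are also highest there. So are the sums of myelin lipid genes (19337 to 19885) and oligodendrocyte precursor genes (9109 to 9989.7), not drawn. The oligodendrocyte sum is not, but a linear sum follows its brightest genes. Within that list Ugt8a (6390 to 6454) and Gsn (6477 to 7202) were highest there, and Mbp (14993 to 17669) and Mobp (8532 to 11220) were not.

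With age, 5 sterol synthesis genes and 1 of fatty acid synthesis fell in mutant spinal cord. From 6 to 10 weeks these 6, with 1 probe set each, were called lower and no member higher: Msmo1, Sc5d, Idi1, Fdps, Hmgcs1 and the fatty acid elongase gene Elovl6. Of all tested probe sets 0.972% were lower and 1.78% higher. The falls were −0.81 ± 0.18 for Msmo1, −0.63 ± 0.16 for Sc5d, −0.54 ± 0.12 for Idi1, −0.48 ± 0.11 for Fdps and −0.34 ± 0.08 for Hmgcs1, with limma adjusted p from 0.023 to 0.043. The signals are those given above, and for each of these 5 genes the 10-week mutant arrays of spinal cord lay below the 6-week ones. Elovl6 read 1773, 1799.6 and 1575 at 6 weeks and 1177, 1370.4 and 1177 at 10 weeks (−0.46 ± 0.09, limma adjusted p = 0.018). Its oculomotor arrays read 1521, 1411 and 1421 at 6 weeks and 1461, 1368 and 1404 at 10 weeks, which overlap. Of the other probe sets of these genes none was called: 3 of Hmgcs1 read 0.01, 0.06 and −0.28, and 1 each of Idi1, Sc5d and Elovl6 read −0.43, −0.20 and −0.32. The median over the 29 genes in spinal cord was −0.12, that of all tested probe sets 0.02. These falls rest on the same spinal cord arrays of 6 weeks as the regional difference at that age, and with no control of 6 weeks an effect of the mutation and growth cannot be told apart.

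The calls depended on single arrays. The number of member probe sets called was 6, and it was 0 without spinal cord 6-week replicate 1 or replicate 2, 2 without spinal cord 10-week replicate 1 or replicate 3, and 0 when those 6 arrays were fitted alone. Without replicate 1 of 6 weeks the 6 values ranged from −0.70 (Msmo1) to −0.30 (Hmgcs1), all still below 0. With each array centred on its median 9 were called, and the split of all calls turned from 242 higher and 132 lower to 129 higher and 298 lower. Markers of other cells fell beside them: Pmp22 read 5801, 8048 and 9339 at 6 weeks and 3540.3, 5006 and 4732 at 10 weeks, and the summed signal of 6 fibroblast and meninges genes went from 7184 to 7656 at 6 weeks to 3792 to 5293 at 10 weeks. Of those 6 genes 4 were called lower, with Col3a1 at −1.09 ± 0.17, and Pmp22 fell by 0.79 on the log2 scale (SE 0.16). Of 11 oligodendrocyte genes 1 was called lower, Gsn at −0.43 ± 0.10, and none higher. The median over these 11 was −0.15, against 0.02 for all tested probe sets. Mobp read 0.33 ± 0.11 and Mbp 0.18 ± 0.14, neither called. The part of any of these cells in the fall of the sterol genes was not tested.

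**Figure D4:**
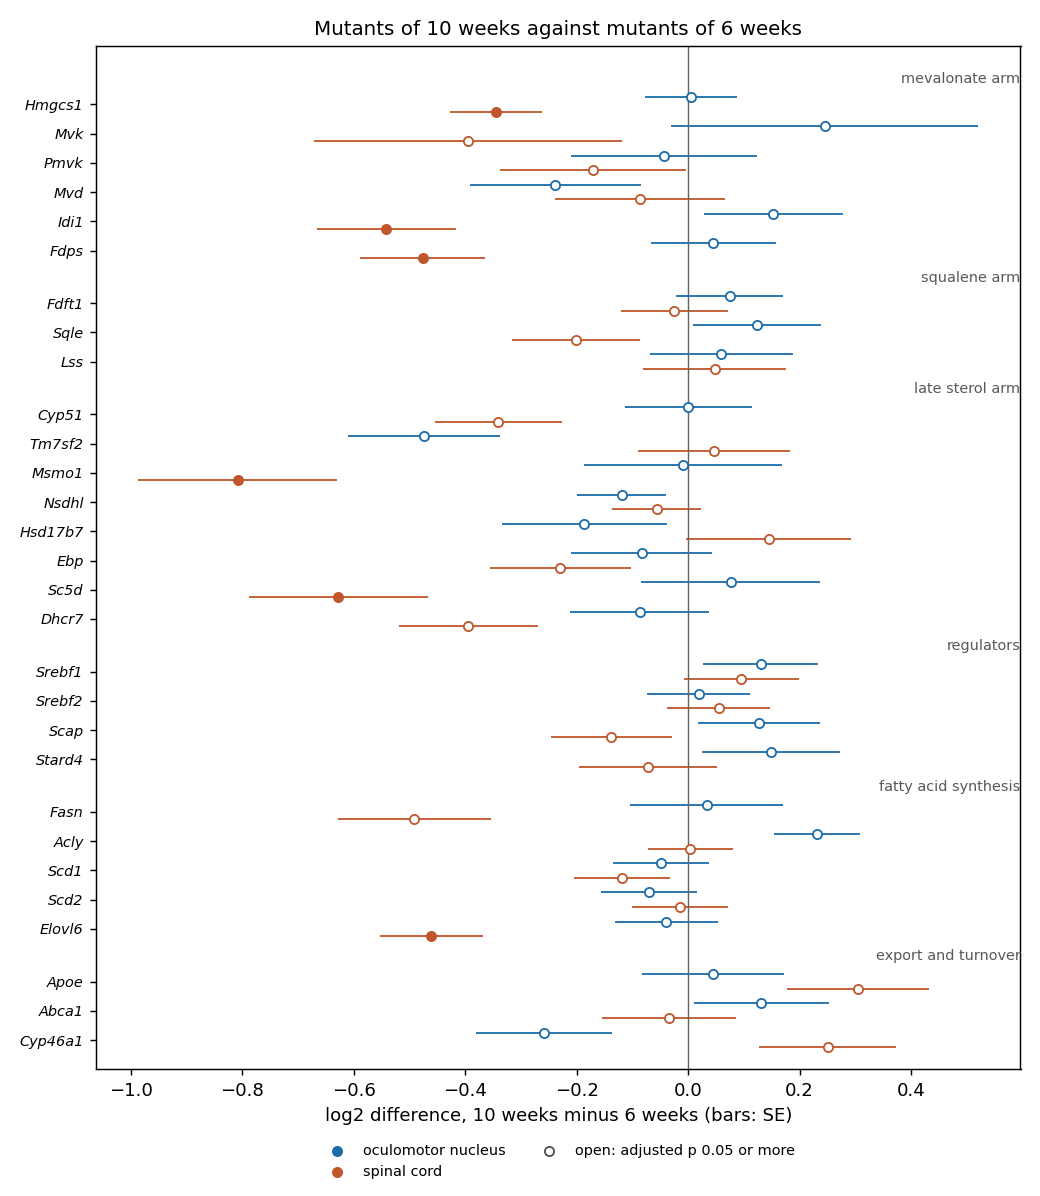
Difference in log2(signal + 25) between mutants of 10 and 6 weeks for each gene (y axis, in pathway order), in oculomotor nucleus and in spinal cord. Bars are standard errors, and filled points have an adjusted p under 0.05. The 6 filled points are all in spinal cord, from −0.81 (Msmo1) to −0.34 (Hmgcs1), and the oculomotor points of these genes lie between −0.04 and 0.15.

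In oculomotor nucleus of mutants no member probe set was called between the ages (background 0.0221%). At an unadjusted p under 0.05 there were 4 of 48, with 2 in each direction, a share near the 8.82% of all tested probe sets. The largest of these was Tm7sf2, at −0.47 ± 0.14 (limma adjusted p = 0.24). The difference between the regions in the age effect was not called for any member either (background 0.368%), although 15 of 48 had an unadjusted p under 0.05, 12 of them higher, where 16.1% of all tested probe sets did. It was 0.69 ± 0.18 and 0.84 ± 0.21 for the 2 probe sets of Idi1 (limma adjusted p = 0.091 and 0.085) and 0.80 ± 0.25 for Msmo1 (adjusted p = 0.15). Without spinal cord 6-week replicate 3, the array on which Msmo1 was low, that of Msmo1 was 1.10 and was called (limma adjusted p = 0.0323).

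Genotype left the list without a call. Between mutants and controls of 10 weeks no member probe set was called in oculomotor nucleus (background 1.47%) or in spinal cord (background 0.0221%), and none differed between the regions in that effect (background 0%). At an unadjusted p under 0.05 there were 8, 2 and 1 of 48 probe sets, against 14.9%, 11.7% and 6.15% of all tested. In oculomotor nucleus 6 of the 8 were higher in mutants. Lss, at 0.42 ± 0.13, had the smallest adjusted p among the genes (limma, 0.11): controls read 233, 246 and 247 and mutants 347, 304 and 347, so that the groups did not overlap. The second probe set of Lss read −0.11 ± 0.18, with groups that overlapped. The first probe set of Lss was called without spinal cord 10-week mutant replicate 1, an array outside the comparison that changes the shared spread. Apoe was not called (0.33), and its groups overlapped, since oculomotor mutant replicate 1 lay below every control array. Without that array Apoe was called, at 0.54. Hmgcs1 was 0.20 ± 0.08 higher and Cyp46a1 0.32 lower (−0.32 ± 0.12), both short of a call, with groups that did not overlap. The 2 probe sets of Scd1 had opposite signs, at 0.24 ± 0.09 and −0.68 ± 0.22, as had those of Idi1, at 0.27 ± 0.12 and −0.31 ± 0.15, none called. In spinal cord Sqle, at 0.30 ± 0.13, and Msmo1, at −0.41 ± 0.20, were the largest values in either direction among the genes. The control group of spinal cord had 2 arrays, which limits what could be called there.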

How the data were processed

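RNA from oculomotor nucleus and cervical spinal cord was hybridised to Affymetrix Mouse Expression Set 430A arrays, 18 in all. The authors deposited linear signal intensities per probe set, made with Affymetrix Microarray Suite 5.0 per the series' design text; the arrays share a trimmed mean (2% cut at each end) of about 500.0, so they had been scaled to a common level. The member genes, lists and tests were chosen with earlier results of these data known. After 64 control probe sets were dropped, 20380 of 22626 had 1 symbol, 691 several and 1555 none; symbols were updated by gene ID through RefSeq. Values were log2(signal + 25), the lowest 40% by mean (13575 kept) were left out, and limma 3.58.1 in R 4.3.3 fitted 6 group means to 17 arrays (eBayes with trend, 11 residual degrees of freedom), with 10 comparisons and Benjamini-Hochberg adjustment. An added 25 understates changes of dim probe sets. The arrays have no read depth, and the number of arrays limits precision. The p-values set a difference against the spread between arrays within groups, estimated from all 6 groups together. Whether that spread is one between animals is not known. The fit was tested on simulated data. Per-array signals are given for Hmgcs1, Sqle, Msmo1, Idi1 and Fdps and for called members with the 6 smallest p in the mean regional, genotype or age comparisons; other lists name up to 4 genes per comparison by smallest p. Alternatives covered scaling, offset, filter, spread, arrays and call rule.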

Additional observations from a re-analysis of the deposited data

How the results depend on the processing

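Most changes of setting kept the regional counts within 1.5 times of those given, and none of the 63 calls of single genes changed sign except when all 18 arrays were fitted. Counts for mutants of 6 weeks, controls and mutants of 10 weeks, and their mean, are in that order. With 1 probe set per gene they were 17, 10, 10 and 22. Called and at least 2-fold were 4, 0, 0 and 0, and 0 for age in spinal cord; by a rule of the submitters' kind (all pairs of arrays ordered alike, with means over 2-fold apart) they were 4, 0 and 0, and 0 for age in spinal cord. Leaving out 1 array gave 21 to 28, 7 to 16, 11 to 19 and 32 to 37, 0 to 7 for age in spinal cord, and 0 to 1 for genotype in oculomotor nucleus and for the regional difference in the age effect. Without both arrays of high pituitary hormones the 10-week mutants gave 11. Arrays of the comparison alone gave 0 for age in spinal cord; fewer arrays then estimate the spread. With all 18 arrays the counts were 3, 1, 0 and 5, and 0 for age. In controls Hmgcs1 then read 0.61, Cyp51 0.49, Nsdhl 0.12, Dhcr7 0.12, Acly 1.22 and Scd1 1.32, and in the mean Fdft1 0.28, Msmo1 0.085, Acly 0.12, Scd1 0.094 and Scd2 0.69, all higher in place of lower, none called. A filter of 60% left 60 of the 63 calls to compare, and all of them were kept. Median centring turned the split of all calls at 6 weeks from 1656 higher and 1583 lower to 1251 and 1897, and that of the regional difference in the age effect from 19 and 31 to 18 and 2 (8 and 5 with quantile normalization); the oculomotor age split went from 3 and 0 to 10 and 4 with quantile normalization. With the replicate number as a block the counts were 27, 15, 17 and 39, 6 for age in spinal cord and 0 elsewhere, and no gene lost its call; same-numbered arrays had correlations of deviations from −0.089 to 0.13, so the numbers were not taken to pair the samples.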
